A study of Mus musculus with 6 samples.

Results

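Glutathione S-transferases and other antioxidant genes were followed in RNA-sequencing libraries of mouse hepatocellular carcinoma (HCC) tumors with or without sorafenib (Sora). Some belong to the NRF2 pathway, and regulation by NRF2 was not tested. The 41 genes were chosen by symbol from a table of 26167 genes. They comprise 22 glutathione transferases and 19 genes of glutathione synthesis, the thioredoxin system, peroxide and superoxide removal, NRF2 control, and the pentose phosphate pathway. All tumors were grown from Hepa1-6, a mouse hepatoma cell line, injected under the skin of female C57BL/6J mice aged 6 to 8 weeks at purchase, so the tumors did not lie in liver. The treated mice received Sora, an inhibitor of several kinases, at 10 mg/kg ip on days 9, 11, 13, and 15. The control mice are labeled only as control. There were 3 control tumors, numbered 1, 3, and 4, and 3 Sora-treated tumors, numbered 2, 3, and 4, with 1 library each. The labels do not give a shared litter, day, or batch for a number.

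Glutathione transferases join the tripeptide glutathione to reactive, fat-soluble compounds, which makes them easier to export. Cytosolic transferases fall into classes named by Greek letters, and liver is one of the tissues richest in them. NRF2, encoded by Nfe2l2, is a transcription factor that KEAP1 holds at low abundance until electrophiles or oxidants modify KEAP1. NRF2 then binds antioxidant response elements (AREs) with a small MAF protein and raises the genes of glutathione synthesis, thioredoxin reduction, and NADPH supply.

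Each library held between 31073830 and 36205814 counted reads. The deposited count table held 5 of the 6 tumors, and the counts of Sora-treated tumor 4 were recovered from its FPKM (read counts scaled to the length of the gene and the library total), as described with the methods. Levels below are the deposited FPKM, which allow genes of different length to be compared. Fold changes and tests come from the counts by edgeR's quasi-likelihood test, with Benjamini-Hochberg adjustment over 16513 genes that had at least 10 counts in at least 3 tumors. Alb, the main plasma protein of hepatocytes, was at 1555 ± 203 FPKM and Afp, the fetal liver protein, at 421 ± 86.3 FPKM in control tumors (SD, n = 3), so hepatoma markers were present. Serpina1a, Ahsg, and Apoh, which mature hepatocytes make in quantity, were under 0.2 FPKM in every tumor.

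Of the 41 genes, 38 passed the filter on low counts and 3 did not (Gsta1, Gsta2, and Gstm3). Gsta3, Gstm1, and Gstm2, all glutathione transferases, fell in Sora-treated tumors, and no gene of the 41 rose with an adjusted p under 0.05. Of all genes tested, 3.29% were called, with falls making up 1.34% and rises 1.94%. An unadjusted p under 0.05 was reached by 11 of the 38 genes (4 higher and 7 lower), beside 17.2% of all genes tested. None of the 19 genes outside the transferase families passed the test (lowest adjusted p = 0.14, edgeR's quasi-likelihood test, and 3 of 19 with an unadjusted p under 0.05). By DESeq2, Gsta3, Gstm1, Gstm2, and Gstt1 fell and Gsto1 rose, and falls made up 3.71% and rises 4.0% of the genes given an adjusted p. Without Sora-treated tumor 4, the fit that used deposited counts alone, none of the 41 passed, when 0.00613% of all genes tested fell and 0.0245% rose (5 genes, edgeR), although 1 of the 41 was higher and 7 were lower with an unadjusted p under 0.05, beside 11.9% of all genes tested in that fit. Among the 38, 25 were lower and 13 were higher in Sora-treated tumors, and the median log2 fold change was -0.08, beside 8269 lower and 8244 higher among all genes tested. The groups did not overlap in 7 genes that were lower (Gsta3, Gstm1, Gstm2, Gstt1, Mgst1, Gclm, and Prdx1) and 3 that were higher (Gsto1, Gstk1, and Mgst3), where 11.2% and 10.6% of all genes tested did not overlap in these directions.

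**Figure D1:**
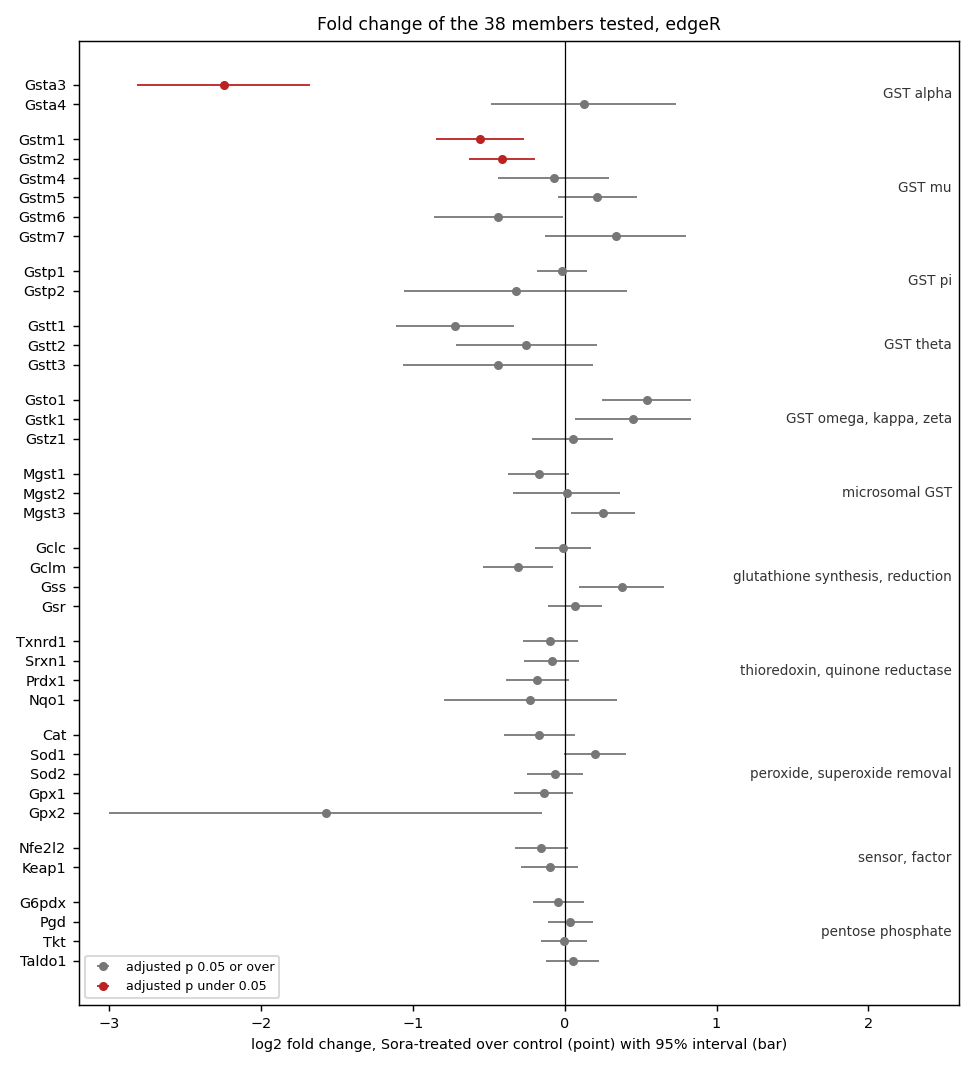
Log2 fold change of each of the 38 genes tested in Sora-treated over control tumors (x axis; point, edgeR estimate; bar, 95% interval; n = 3 tumors per group), grouped by family. Gsta3 (-2.25) has the lowest estimate, which lies within the wide interval of Gpx2 (-1.57, 95% interval -3.0 to -0.15). Gstm1 and Gstm2 are the other genes with an adjusted p under 0.05, and the intervals of the pentose phosphate genes are short and include 0.

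The alpha class of transferases acts on lipid peroxidation products and steroids. Gsta3 measured 6.44, 6.57, and 12.1 FPKM in control tumors 1, 3, and 4 and 1.99, 1.88, and 1.38 FPKM in Sora-treated tumors 2, 3, and 4. Every Sora-treated tumor lay below every control tumor, and control tumor 4 stood above the other two controls. The fall was 4.74-fold (log2 fold change -2.25, standard error 0.26, adjusted p = 0.0071, edgeR's quasi-likelihood test). It passed in 16 of 18 alternatives. The exceptions were the fit without Sora-treated tumor 4 (log2 fold change -2.11, adjusted p = 0.054) and log2(FPKM + 1) without a filter on low values (adjusted p = 0.14, limma). Gsta4, the class member most active on the lipid aldehyde 4-hydroxynonenal, varied more within groups than between them. It measured 11.1, 5.35, and 6.95 FPKM in control and 11.7, 6.28, and 7.25 FPKM in Sora-treated tumors (log2 fold change 0.12, 95% interval -0.49 to 0.74). Gsta1 and Gsta2, near-identical copies, had at most 2 and 13 reads in any tumor. Gsta2 had 1, 3, and 4 reads in control and 1, 13, and 9 reads in Sora-treated tumors, and Gsta1 had 2, 0, and 2 and 1, 0, and 0 reads. These reads are too few for a comparison.

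The promoter of Gsta3, the gene with the largest fall among the 38, is shown with its ARE core in capitals (250 bases before to 50 after the start, RefSeq, GRCm38.p6, chr1:21240335-21240634, plus strand).
Gsta3: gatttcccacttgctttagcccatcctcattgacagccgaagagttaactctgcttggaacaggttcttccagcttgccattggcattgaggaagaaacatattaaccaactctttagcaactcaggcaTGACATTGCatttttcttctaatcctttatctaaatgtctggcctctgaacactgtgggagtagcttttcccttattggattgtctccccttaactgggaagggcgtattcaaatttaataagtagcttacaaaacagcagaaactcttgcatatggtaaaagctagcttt
The core, TGACNNNGC, is the part of the ARE that a NRF2 and small MAF pair contacts most, and here 112 bases lie between it and the start.

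The mu class is encoded by neighboring genes on chromosome 3 and acts on epoxides and quinones. Gstm1 measured 40.5, 37.1, and 50.4 FPKM in control and 28.3, 34.2, and 23.8 FPKM in Sora-treated tumors, and the groups did not overlap although Sora-treated tumor 3 came close to the controls (log2 fold change -0.56, standard error 0.13, adjusted p = 0.045, edgeR's quasi-likelihood test). Gstm2 measured 40.1, 39.0, and 49.9 FPKM in control and 32.5, 32.1, and 31.4 FPKM in Sora-treated tumors, where the tumors of the treated group were almost alike (log2 fold change -0.42, standard error 0.10, adjusted p = 0.047, same test). Both lie just under the threshold. Gstm1 passed in 7 of 18 alternatives and Gstm2 in 7 of 18. With 1 tumor left out, the adjusted p of Gstm1 lay between 0.012, with Sora-treated tumor 3 omitted, and 0.20, with Sora-treated tumor 4 omitted, and that of Gstm2 between 0.059 and 0.18 (edgeR). Gstm1 passed only with Sora-treated tumor 3 omitted, and Gstm2 with no tumor omitted. In both, control tumor 4 was the highest and Sora-treated tumor 4 the lowest, as in Gsta3.

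Of the other mu genes, 4 were tested and none passed. Gstm6 measured 4.45, 3.54, and 5.03 FPKM in control and 2.62, 3.88, and 3.04 FPKM in Sora-treated tumors, and the groups overlapped (log2 fold change -0.44, 95% interval -0.86 to -0.01, adjusted p = 0.28, edgeR). This estimate was of the size of that of Gstm2, with a wider interval. Gstm5, a form best known from brain and testis, had 15.9, 19.1, and 17.3 FPKM in control and 21.7, 20.9, and 17.9 FPKM in Sora-treated tumors (log2 fold change 0.22, 95% interval -0.04 to 0.47). Gstm7 and Gstm4 had log2 fold changes of 0.34 (95% interval -0.13 to 0.80) and -0.07 (-0.44 to 0.29). Gstm3 had 4, 4, and 21 reads in control and 1, 1, and 0 reads in Sora-treated tumors, too few to be tested. The groups did not overlap, and here too control tumor 4 was the highest and Sora-treated tumor 4 the lowest.

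The promoters of Gstm1 and Gstm2 are shown because these neighbors fell together (RefSeq, GRCm38.p6, minus strand, chr3:108017769-108018068 for the downstream of the 2 start sites of Gstm1 and chr3:107986371-107986670 for Gstm2).
Gstm1: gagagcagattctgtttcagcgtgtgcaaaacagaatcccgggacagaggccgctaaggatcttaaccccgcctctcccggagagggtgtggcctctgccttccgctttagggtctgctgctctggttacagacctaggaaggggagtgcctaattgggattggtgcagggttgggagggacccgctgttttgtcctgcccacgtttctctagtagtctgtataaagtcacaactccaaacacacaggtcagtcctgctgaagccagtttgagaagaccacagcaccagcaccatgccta
Gstm2: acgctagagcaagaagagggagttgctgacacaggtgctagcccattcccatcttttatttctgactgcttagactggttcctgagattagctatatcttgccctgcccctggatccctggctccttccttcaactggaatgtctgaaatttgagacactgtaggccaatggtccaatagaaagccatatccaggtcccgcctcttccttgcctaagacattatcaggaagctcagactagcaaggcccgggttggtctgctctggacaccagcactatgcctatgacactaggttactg
Neither window, nor that of the upstream start site of Gstm1, holds TGACNNNGC on either strand, so no base is in capitals.

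Theta class enzymes handle small halogenated compounds. Gstt1 measured 8.63, 10.2, and 10.1 FPKM in control and 5.70, 7.21, and 4.58 FPKM in Sora-treated tumors. The groups did not overlap, and the adjusted p lay just over the threshold (log2 fold change -0.72, standard error 0.18, adjusted p = 0.053, edgeR's quasi-likelihood test). It passed in 6 of 18 alternatives, including DESeq2 (adjusted p = 0.0040) and the fit without Sora-treated tumor 3 (0.016). Gstt2 (log2 fold change -0.25) and Gstt3 (-0.44), at under 3 FPKM, overlapped between the groups. When the reads of the class were summed per tumor before the fit, theta class reads were 541, 556, and 626 in control and 335, 462, and 343 in Sora-treated tumors (log2 fold change -0.55, standard error 0.13, adjusted p = 0.041, edgeR). The summed alpha class also passed (log2 fold change -0.92, adjusted p = 0.034, same test), and the summed mu (-0.33, 0.10), pi (-0.02, 0.91), and microsomal (-0.08, 0.73) classes did not. DESeq2 called the alpha, theta, and mu sums (adjusted p = 0.024 for mu). The alpha sum was lower through Gsta3, with 328, 357, and 712 reads in control and 101, 102, and 77 reads in Sora-treated tumors, whereas Gsta4 had 334, 171, and 241 reads against 349, 200, and 237. In the theta sum, Gstt1 had 294, 371, and 397 reads in control and 193, 261, and 170 reads in Sora-treated tumors. Only Gstt1 of this class did not overlap between the groups. With 1 tumor left out, the adjusted p (edgeR) ranged from 0.028 to 0.17 for the alpha class and from 0.0072 to 0.18 for the theta class, and both were highest without Sora-treated tumor 4. The alpha class passed without control tumor 3 or Sora-treated tumor 2, and the theta class without Sora-treated tumor 3, and neither passed when any other tumor was omitted.

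Gsto1, an omega class enzyme that reduces dehydroascorbate and methylated arsenic, had the highest mean FPKM of the transferases in both groups, although Gstp1 was higher in control tumor 1. Gsto1 measured 139, 151, and 145 FPKM in control and 214, 166, and 247 FPKM in Sora-treated tumors, so all Sora-treated tumors were above all controls, with Sora-treated tumor 3 the nearest to them (log2 fold change 0.54, standard error 0.13, adjusted p = 0.053, edgeR's quasi-likelihood test). It passed in 4 of 18 alternatives, which were DESeq2 (adjusted p = 0.00071), total counts, no filter, and the fit without Sora-treated tumor 3 (0.0045). Gstk1, the kappa enzyme of mitochondria and peroxisomes, measured 5.54, 5.54, and 6.56 FPKM in control and 8.65, 6.70, and 8.57 FPKM in Sora-treated tumors (log2 fold change 0.45, adjusted p = 0.21, edgeR). Gstz1, which takes part in tyrosine breakdown, had a log2 fold change of 0.05 (95% interval -0.21 to 0.32).

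Gstp1, the pi class enzyme common in tumors and in tissues outside liver, was next to Gsto1 in level, at 153, 131, and 133 FPKM in control and 141, 141, and 127 FPKM in Sora-treated tumors (log2 fold change -0.02, 95% interval -0.18 to 0.15). Gstp2, its close copy, was between 1.28 and 2.19 FPKM in all tumors. Among the microsomal transferases, which sit in membranes, Mgst1 was at 74.2, 69.9, and 66.0 FPKM in control and 54.6, 64.5, and 65.9 FPKM in Sora-treated tumors, a gap of almost nothing between the nearest tumors of the groups (log2 fold change -0.17, adjusted p = 0.38, edgeR). Mgst3 was at 18, 16.5, and 17.5 FPKM in control and 19.0, 20.6, and 21.8 FPKM in Sora-treated tumors (log2 fold change 0.25, adjusted p = 0.19, edgeR). Mgst2 had a log2 fold change of 0.01 (95% interval -0.34 to 0.36).

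**Figure D2:**
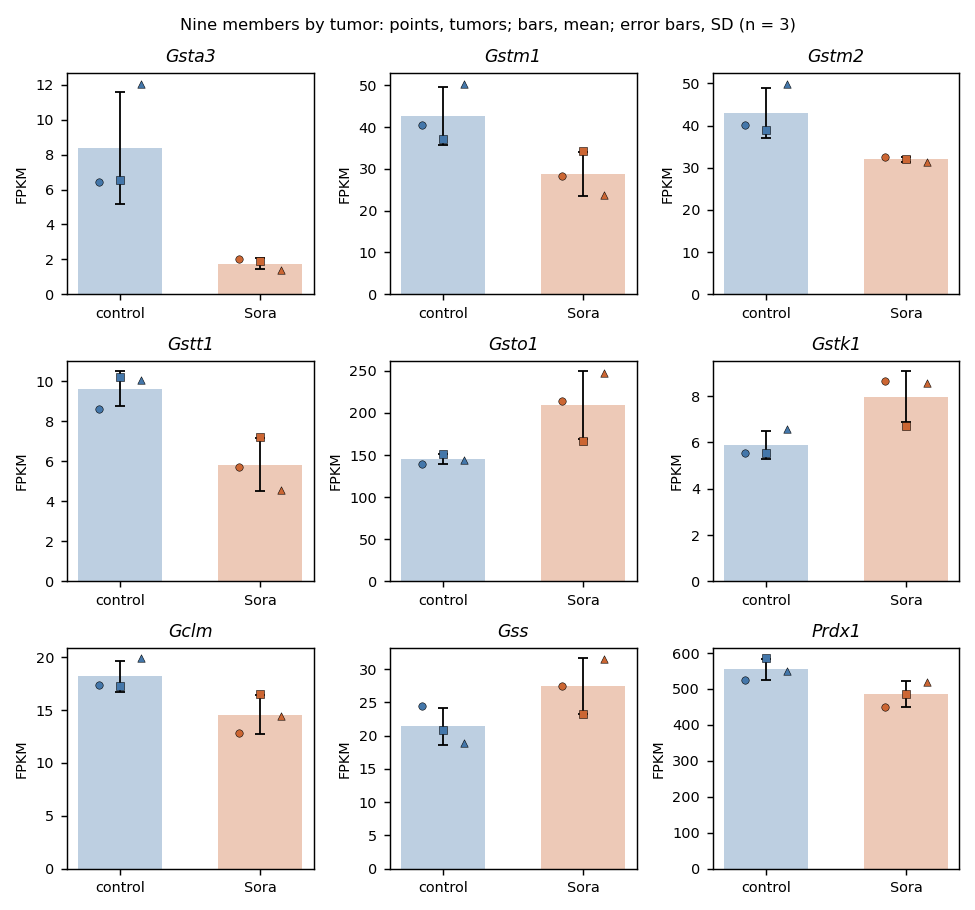
FPKM (y axis, from 0) of 9 genes in each tumor (points; bar, mean; error bar, SD, n = 3). Gsta3, Gstm1, Gstm2, Gstt1, Gclm, and Prdx1 are lower in every Sora-treated tumor than in any control tumor, Gsto1 and Gstk1 are higher, and Gss overlaps.

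The sum of FPKM over the 22 transferases was 522 to 546 in control and 534 to 586 in Sora-treated tumors, so the ranges overlapped. Gsto1 alone held 25.6% to 29.0% of this sum in control and 31.1% to 42.1% in Sora-treated tumors. The mu class held 20.2%, 20.3%, and 24.3% in control tumors and 16.7%, 18.9%, and 14.4% in treated ones. The 4 alpha genes together held 2.30% to 3.51% and 1.52% to 2.44%, and these ranges overlapped. Shares add to a fixed total, so a higher share of Gsto1 lowers the others.

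**Figure D3:**
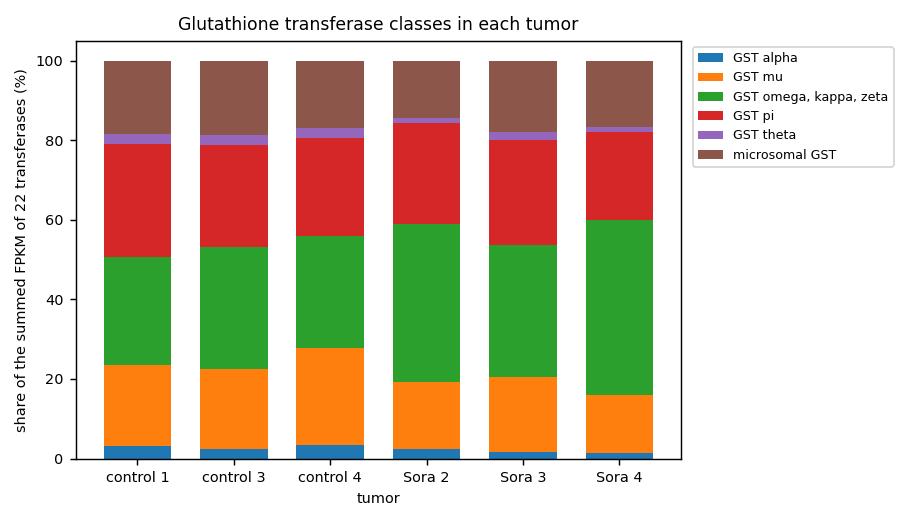
Share of each transferase class in the summed FPKM of the 22 transferases (y axis, percent) in each tumor. The omega, kappa, and zeta group takes 27.2% to 30.7% in control and 33.0% to 44.1% in Sora-treated tumors, whereas the mu class is smaller in every Sora-treated tumor than in any control tumor.

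Glutathione is made in 2 steps, by glutamate-cysteine ligase (catalytic subunit Gclc, modifier subunit Gclm) and glutathione synthetase (Gss), and is restored from its oxidized form by glutathione reductase (Gsr). Gclm measured 17.4, 17.3, and 19.9 FPKM in control and 12.8, 16.5, and 14.4 FPKM in Sora-treated tumors, with no overlap (log2 fold change -0.31, standard error 0.10, adjusted p = 0.15, edgeR's quasi-likelihood test). Gss measured 24.4, 20.8, and 18.9 FPKM in control and 27.5, 23.2, and 31.6 FPKM in Sora-treated tumors, where only Sora-treated tumor 3 fell among the controls (log2 fold change 0.37, standard error 0.13, adjusted p = 0.14, same test). Gclc and Gsr had log2 fold changes of -0.01 (95% interval -0.20 to 0.17) and 0.07 (-0.11 to 0.25). None of the 4 genes passed the test. Gss passed in 2 of 18 alternatives, with no filter (adjusted p = 0.042, edgeR) and without Sora-treated tumor 3 (0.034).

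The thioredoxin system reduces protein disulfides and peroxiredoxins. Prdx1, an abundant peroxiredoxin, had the highest control mean of all 41 genes, with 526, 585, and 551 FPKM in control and 450, 487, and 520 FPKM in Sora-treated tumors (log2 fold change -0.18, adjusted p = 0.37, edgeR). Txnrd1, which reduces thioredoxin, and Srxn1, which repairs overoxidized peroxiredoxins, had log2 fold changes of -0.10 (95% interval -0.28 to 0.09) and -0.09 (-0.27 to 0.09). Nqo1, the quinone reductase often used as a readout of NRF2, was low in these tumors, at 1.24, 0.912, and 0.816 FPKM in control and 1.03, 0.861, and 0.630 FPKM in Sora-treated tumors (log2 fold change -0.23, 95% interval -0.80 to 0.34).

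Of the enzymes that remove superoxide and peroxides, Sod1, the cytosolic superoxide dismutase, was at 461, 519, and 439 FPKM in control and 539, 515, and 561 FPKM in Sora-treated tumors (log2 fold change 0.20, adjusted p = 0.31, edgeR). Gpx1, the main cytosolic glutathione peroxidase, was at 310, 311, and 259 FPKM in control and 259, 269, and 265 FPKM in Sora-treated tumors (log2 fold change -0.14, adjusted p = 0.47, edgeR). Sod2, the mitochondrial dismutase, and Cat, the peroxisomal catalase, had log2 fold changes of -0.06 and -0.17. Cat passed in 1 of 18 alternatives, without Sora-treated tumor 3 (adjusted p = 0.028, edgeR). Gpx2, a glutathione peroxidase known from gut epithelium, had the widest interval of the 38. It was at 1.62, 2.47, and 1.06 FPKM in control and 1.27, 0.113, and 0.357 FPKM in Sora-treated tumors, where Sora-treated tumor 2 lay within the controls (log2 fold change -1.57, 95% interval -3.0 to -0.15, adjusted p = 0.23, edgeR). With 1 tumor left out its log2 fold change lay between -2.82 (Sora-treated tumor 2 omitted) and -1.08 (Sora-treated tumor 3 omitted), and it passed in none of 17 alternatives (lowest adjusted p = 0.069, edgeR).

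Nfe2l2 itself was at 43.9, 41.5, and 49.6 FPKM in control and 41.6, 40.4, and 38.4 FPKM in Sora-treated tumors (log2 fold change -0.15, 95% interval -0.33 to 0.02, adjusted p = 0.35, edgeR). Keap1 was at 17.8, 18.2, and 16.0 FPKM in control and 15, 17.5, and 15.8 FPKM in Sora-treated tumors (log2 fold change -0.10, 95% interval -0.29 to 0.09). NRF2 is set mainly by the stability of its protein, which these libraries do not measure.

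The pentose phosphate pathway supplies the NADPH with which glutathione and thioredoxin are reduced. Its 4 genes had coefficients of variation of 1.21% to 5.18% over the 6 tumors, the lowest among the groups of the 41. G6pdx, the entry enzyme, and Pgd, the other NADPH-producing step, were at 29.5 to 33.7 and 53.8 to 54.1 FPKM in control and 29.4 to 31.2 and 52.0 to 56.9 FPKM in Sora-treated tumors. Tkt, the transketolase, lay between 73.0 and 75.1 FPKM over all 6 tumors, and Taldo1, the transaldolase, between 112 and 125 FPKM. Their log2 fold changes lay between -0.04 and 0.05, and each 95% interval excluded a change of 1.5-fold in either direction. Over the 38 genes, 23 had such an interval (60.5%, beside 59.9% of all genes tested), with 7 of 19 transferases and 16 of 19 other genes. The median coefficient of variation over the tumors was 20.1% in the transferases tested, 7.84% in the other genes, and 12.5% in all genes tested.

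**Figure D4:**
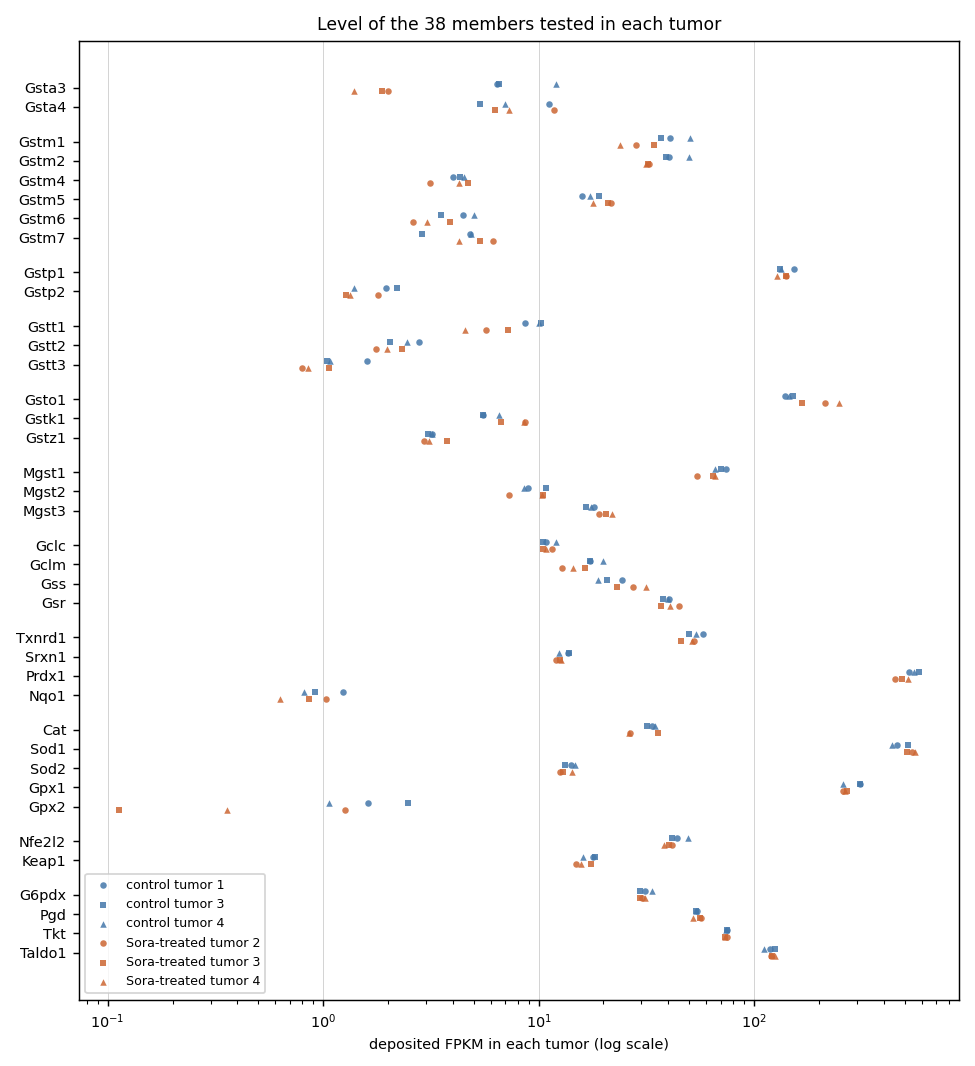
FPKM (x axis, log scale) of the 38 genes tested in each of the 3 control and 3 Sora-treated tumors (points; color, group; shape, tumor), in the same order of families. Levels span from 0.113 FPKM (Gpx2 in Sora-treated tumor 3) to 585 FPKM (Prdx1 in control tumor 3), and the tumors lie closest together in Tkt and Pgd.

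The tumors did not contribute evenly to these values. Sora-treated tumor 2 was the lowest of the 6 in 13 of the 38 genes (34.2%, beside 14.8% of all genes tested), Sora-treated tumor 4 in 9 (23.7%, beside 25.0%), and Sora-treated tumor 3 in 6 (15.8%, beside 9.77%). Control tumor 3 was the highest in 10 (26.3%, beside 11.4%) and control tumor 4 in 9 (23.7%, beside 20.3%).

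Promoter windows from RefSeq (GRCm38.p6, 250 bases before to 50 after each start) were matched by symbol for 37 of the 41 genes. Gsta4, Gstt2, Gclc, and Gsr had no entry. The ARE core TGACNNNGC was searched on both strands. It was found in 12 of the 37 genes (32.4%), beside 13.99% of the 27025 genes of the same table. The 12 sites are shown because they are the sequence feature by which NRF2 recognizes its targets. Each is read in the direction of the core, whose strand and position are given, with the core in capitals and 10 bases on each side.
G6pdx (chrX:74428929-74428937, plus strand): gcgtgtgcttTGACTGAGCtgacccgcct
Gclm (chr3:122245423-122245431, minus strand): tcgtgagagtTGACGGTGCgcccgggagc
Gsta3 (chr1:21240464-21240472, plus strand): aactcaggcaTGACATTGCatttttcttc
Gstm5 (chr3:107895812-107895820, plus strand): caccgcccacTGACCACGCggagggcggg
Gstm7 (chr3:107931735-107931743, minus strand): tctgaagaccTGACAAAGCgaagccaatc
Mgst1 (chr6:138140471-138140479, minus strand): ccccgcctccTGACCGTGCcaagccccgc
Nfe2l2 (chr2:75704895-75704903, minus strand): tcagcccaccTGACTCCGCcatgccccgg
Pgd (chr4:149166071-149166079, minus strand): atttcagagcTGACATTGCactgatcgga
Prdx1 (chr4:116685466-116685474, minus strand): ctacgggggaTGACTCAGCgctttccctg
Sod1 (chr16:90220706-90220714, minus strand): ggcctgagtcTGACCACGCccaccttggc
Srxn1 (chr2:152105552-152105560, minus strand): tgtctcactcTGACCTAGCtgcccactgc
Txnrd1 (chr10:82859114-82859122, minus strand): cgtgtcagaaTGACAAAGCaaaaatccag
Gsta3 and Pgd share the same 9 letters, as do Gstm5 and Sod1, and Gstm7 and Txnrd1. The core of Prdx1 also holds TGACTCA, the site of AP-1 factors, which overlaps the ARE by its letters. TGACTCA was found in 6 of the 37 genes (Gstm5, Gstp1, Gstp2, Mgst2, Prdx1, and Srxn1; 16.2%, beside 5.95% of genes). A match of letters does not show that a factor binds there, and a site outside the window would be missed.

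**Figure D5:**
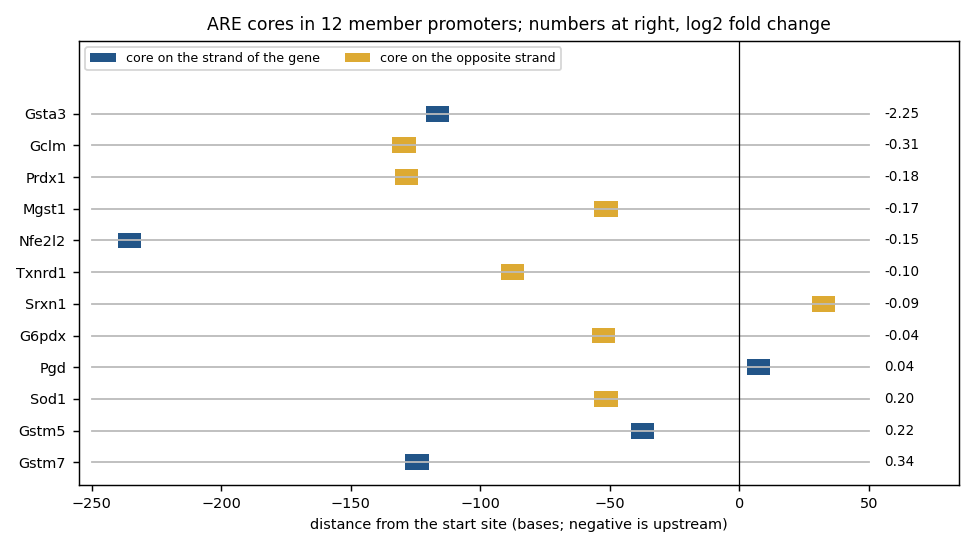
Position of the ARE core in the 12 promoters that hold one (x axis, bases from the start site; blue, core on the strand of the gene; yellow, on the opposite strand), ordered by log2 fold change, which is printed at the right. Gsta3 (-2.25) has its core upstream of the start, with 112 bases between them, and the other 11 genes lie between -0.31 and 0.34.

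Of the 12 genes with a core, all were tested, 8 were lower and 4 higher in Sora-treated tumors, and Gsta3 was the only one called. Their median log2 fold change was -0.09. Of the 25 matched genes without a core, 22 were tested, 15 were lower and 7 higher, 2 were called (Gstm1 and Gstm2), and the median was -0.09.

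Copies of transferase genes can share reads. In GENCODE M21 transcripts, 80.6% of the windows of 100 bases of Gsta1 also occurred in another gene, as did 46.9% of Gstp2, 28.4% of Gsta2, 25.1% of Gstp1, 13.8% of Gstm3, and 10.8% of Gstt3. For the genes that fell, the share was 0% in Gsta3, 5.86% in Gstm1, and 0.357% in Gstm2, and it was 0% in Gstt1 and Gsto1. Windows of all transcripts of a gene were pooled, 1937 for Gstp1, whose FPKM used a length of 744 bases. Shares above 0% may therefore differ for the length that was counted. The read length is not given in the sources used here.

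Genes of the same pathways outside the 41 were taken from 5 lists with 108 genes, of which 101 were tested. Of these, 2 rose and 7 fell with an adjusted p under 0.05 by edgeR's quasi-likelihood test, and the median log2 fold change was -0.01. Of all genes tested, 1.94% rose and 1.34% fell by the same test. Among 28 tested NRF2 targets, 2 rose and 2 fell. Slc7a11, the cystine importer that feeds glutathione synthesis, rose by a log2 fold change of 0.51 (adjusted p = 0.023, edgeR), from a mean of 6.04 FPKM to 8.54 FPKM, with no overlap between the groups. Akr1b8, an aldo-keto reductase, rose from 45.1 ± 1.97 to 65.2 ± 9.02 FPKM (SD, n = 3), with no overlap (log2 fold change 0.54, adjusted p = 0.027, edgeR). Idh1, the cytosolic NADPH-producing isocitrate dehydrogenase, and Ephx1, an epoxide hydrolase, fell with log2 fold changes of -0.40 and -0.62.

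Among 22 other glutathione enzymes tested, Cbs, which makes cystathionine on the way to cysteine, fell from 1.80 ± 0.139 to 0.871 ± 0.126 FPKM (log2 fold change -1.03, adjusted p = 0.031, edgeR), and Anpep, which cleaves extracellular peptides, fell (-0.47). Among 22 other peroxidases, peroxiredoxins, and thioredoxins, Gpx3, the secreted glutathione peroxidase (-0.39), and Sesn3, a sestrin (-0.50), fell. Among 14 partners and regulators of NRF2, Nfe2l3, which encodes the related factor NRF3, fell (-0.69). None of 15 other pentose phosphate and NADPH genes passed (1 had an unadjusted p under 0.05 in edgeR, beside 17.2% of all genes tested). All 9 were called by DESeq2. None was called without control tumor 1 (lowest adjusted p = 0.0504, edgeR), Sora-treated tumor 2 (0.067), Sora-treated tumor 4 (0.096), or with log2(FPKM + 1) and no filter (0.14, limma), and without control tumor 3 or 4 the calls were 3 and 1.

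Summed markers of some other cell types differed between the groups without overlap, and in bulk tumors fewer cells of a type and less RNA per cell cannot be told apart. Summed FPKM of 15 hepatocyte and hepatoma markers was 2408 to 3041 in control and 2299 to 2415 in Sora-treated tumors, which overlapped, with Apoh at 0 in at least 1 tumor. Within that list Alb (log2 fold change -0.55) and Ttr, the thyroxine carrier (-2.15), fell and Apoa1 (1.03) and Hnf4a (0.80) rose (adjusted p from 0.0055 to 0.047, edgeR), and 7 of 12 tested were lower. These calls held in 10 (Alb), 17 (Ttr), 5 (Apoa1), and 14 (Hnf4a) of 18 alternatives, and DESeq2 did not call Apoa1 (adjusted p = 0.063). Leukocyte markers (5 of 5 lower) summed to 587 to 659 FPKM in control and 481 to 557 in Sora-treated tumors, T cell markers (7 of 7 tested lower) to 115 to 131 and 94.8 to 102. The leukocyte log2 fold changes lay between -0.40 (Cd52) and -0.04 (Cd53). Macrophage markers (7 of 7 lower) summed to 1094 to 1316 and 907 to 1097, which overlapped. Fibroblast markers (5 of 6 lower) summed to 1787 to 1889 and 1409 to 1693. Log2 fold changes were -0.42, -0.47, and -0.42 in the collagens Col1a1, Col1a2, and Col3a1. They were 0.03 in Dcn, -0.03 in Pdgfra, and -0.22 in Lum. Neutrophil markers (5 of 5 tested higher, with S100a9 called) summed to 42.9 to 53.3 and 59.9 to 152, and red blood cell markers (3 of 3 tested lower, with Hba-a1 called) to 60.6 to 166 and 44.6 to 56.4, with Slc4a1 at 0 in at least 1 tumor. S100a9 was called in 6 and Hba-a1 in 7 of 18 alternatives, and DESeq2 did not call S100a9 (adjusted p = 0.053). Summed levels also overlapped between the groups for endothelial (4 of 6 lower), pericyte (2 of 4), B cell (4 of 4), skeletal muscle (0 of 6), keratinocyte (0 of 6), and adipocyte (0 of 4) markers. The part of these cells in the falls of Gsta3, Gstm1, and Gstm2 and in the higher values of Gsto1 was not tested.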

How the data were processed

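RNA of 3 control and 3 Sora-treated Hepa1-6 tumors was sequenced, with 1 library per tumor. The paper names Bowtie2 and GRCm38, whereas the submitters' processing notes name fastp, HISAT2, HTSeq, R 3.2.0, DESeq2, and GRCm39. Of the 26167 symbols, 1348 are not in the RefSeq table of GRCm38.p6, so no gene coordinates are given and promoters carry the build of their own table. The annotation and the use of strand are not given in the sources used here. The authors deposited counts, whole reads per gene without normalization, for 5 tumors, and FPKM for all 6. The deposited FPKM of the 5 tumors equal the counts divided by a fixed length for every gene and by the library total, although the paper describes expectation maximization. The counts of Sora-treated tumor 4 were recovered by this relation, with 100% of values within 0.001 of a whole number. The calculation returned every count it could reach in each of the other 5 tumors (20969 to 21229 genes). In Sora-treated tumor 4, 342 genes with 512 reads had no known length and were left at 0.

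Counts were tested with edgeR 4.0.16 (TMM scaling, glmQLFit and glmQLFTest, at least 10 counts in at least 3 tumors, Benjamini-Hochberg adjustment, threshold 0.05) in R 4.3.3. The common biological coefficient of variation was 0.132. Standard errors are the size of the log2 fold change divided by the square root of F, and 95% intervals use the t distribution. Nothing in the labels or methods says that tumors came from separate experiments, so p-values measure the spread between these tumors. Alternatives were DESeq2 1.42.0, limma 3.58.1 (voom, or log2(FPKM + 1) and log2(FPKM + 0.1) for genes reaching 1 FPKM in 3 or more tumors, or unfiltered), other scalings and filters, robust=TRUE, a replicate block, and leaving out each tumor. The replicate block compares the groups only in numbers 3 and 4, which occur in both. The scripts were tested on simulated data. The named genes are the 41, and any gene of the other lists with an adjusted p under 0.05. Some other markers are also named, for their level or their part in a sum. The members and lists were chosen with earlier results of these data known. A marker gene is not reported here and was left out of its list.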

Additional observations from a re-analysis of the deposited data

How the results depend on the processing

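Gsta3 was lower in Sora-treated tumors under every alternative run, with log2 fold changes from -2.45 to -1.72, and Gstm1, Gstm2, Gstt1, and Gsto1 also kept their direction in all of them. Calls moved more. The 543 genes called in all became 1147 with no filter, 1194 by DESeq2, 286 with log2(FPKM + 1), 252 with log2(FPKM + 0.1), 0 with log2(FPKM + 1) and no filter (limma, with 3115 at an unadjusted p under 0.05), and 5 to 1145 with 1 tumor left out, the fewest without Sora-treated tumor 4 and the most without Sora-treated tumor 3. Of the 41 genes, 0 were called higher (4 at an unadjusted p under 0.05, edgeR), against 1 with total counts, 1 by DESeq2, 2 with no filter, and 0 to 2 with 1 tumor left out. The 3 called lower became 1 with log2(FPKM + 0.1), 0 with log2(FPKM + 1) and no filter (6 lower at an unadjusted p), and 0 to 4 with 1 tumor left out. The median log2 fold change of -0.08 lay between -0.105 and -0.0486 with 1 tumor left out. The cause of these shifts was not tested.

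Numbers 3 and 4 occur in both groups. Deviations from the group means did not go together in tumors of the same number (correlations over genes -0.06 and -0.07, where pairs of unlike number ranged from -0.11 to 0.19), so the numbers were not taken as pairs. Number 1 occurs only in control and number 2 only in Sora-treated tumors. A fit with a replicate block therefore compares the groups only in numbers 3 and 4. With this block, 125 genes in all and 1 of the 41 (Gsta3) were called. None of the 9 other pathway genes was (lowest adjusted p = 0.0996, edgeR), and the median was -0.0511.

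Signs turned in genes and classes with log2 fold changes of 0.12 or less in size. With the replicate block, Gstm4 was at 0.0239 and Gstp1 at 0.0214. Mgst2 was at -0.0094 with log2(FPKM + 1), with or without the filter, and at -0.012 with log2(FPKM + 0.1), and Tkt was at 0.000292 with a mean of at least 50 counts. With 1 tumor left out, values ranged from -0.177 to 0.445 for Gsta4, -0.186 to 0.0844 for Gstm4, -0.0531 to 0.0375 for Gstp1, -0.0495 to 0.131 for Gstz1, -0.0859 to 0.173 for Mgst2, -0.0475 to 0.0459 for Gclc, -0.0803 to 0.00817 for G6pdx, -0.0189 to 0.0232 for Tkt, -0.0587 to 0.0334 for the summed pi class, and -0.152 to 0.0151 for the summed microsomal class. Counting error limits Gsta1, Gsta2, and Gstm3, with at most 21 reads in a tumor. Gpx2 also had few reads, with 54, 88, and 41 in control and 42, 4, and 13 in Sora-treated tumors. Its reads differed widely between tumors of the same group.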
